A study of Mus musculus with 10 samples.

Results

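The transcription factors Mitf, Pax3, Foxd3, Snai1, Snai2, Twist1, Twist2 and Zic1, all known from the neural crest, were followed across 5 cell populations sorted from mouse backskin at postnatal day 4 (P4). All probe-sets assigned to these 8 genes alone were taken, which gave 10 of the 22626 non-control probe-sets on the Affymetrix MOE430A array and 8 of 12393 named genes. Mitf and Pax3 had a pair of probe-sets each and the other 6 genes 1 each. Every population came from mice carrying both the K14-H2BGFP transgene, which marks skin epithelium green, and Lef1-RFP, in which a fragment of the human Lef1 promoter drives a red reporter. Matrix cells (Mx, the dividing progenitors of the hair shaft) were GFP-low and RFP-negative, and outer root sheath cells (ORS) were GFP-high and RFP-negative. Dermal papilla cells (DP, the mesenchyme at the base of the follicle) were RFP-high and GFP-negative. The dermal fraction (DF) was negative for both reporters. Before DP and DF were sorted, cells with CD34, CD45 or CD117 were depleted with magnetic beads. Melanocytes (Mc) were RFP-high and CD117-positive, CD117 being the protein of the Kit gene. The methods pool the backskins of several mice for each sort and describe the 2 arrays of each population as independent datasets, so n = 2 throughout.

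The neural crest is an embryonic cell population that leaves the border of the neural tube, migrates widely and forms melanocytes, peripheral neurons and glia, and much of the skeleton and dermis of the face. The dermis of the back is instead formed mostly by mesoderm. Zic1 and Pax3 belong to the early layer of the network, which sets up the neural plate border. Foxd3, Snai1 and Snai2 are specifiers of the crest itself, and the Snail and Twist factors drive the loss of epithelial character that allows cells to migrate. Mitf is the master regulator of the melanocyte lineage, and Pax3 acts on it from upstream. Twist1 and Twist2 are in addition factors of mesenchyme in general, dermis included.

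A signal is the array intensity computed by the MAS5 algorithm and scaled by the authors. A probe-set counted as expressed where both arrays of a population reached a signal of 200. The 8054 probe-sets expressed somewhere entered a limma test on log2(signal + 50). Of the 10 member probe-sets 8 passed this bound, for 6 of the 8 genes. Foxd3 and Snai1 did not, and their tests come from the same fit with the bound lowered to 100. Differences and folds are on the log2(signal + 50) scale, which understates changes of low signals, and adjusted p-values are limma's with Benjamini-Hochberg adjustment over all tested probe-sets. Levels were compared for one probe-set between populations and never between genes.

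The populations bore out their labels on markers, with exceptions that touch these factors. The summed signal of 8 melanocyte marker genes was 36813.1 and 36997.7 on the Mc arrays but also 26151.7 and 16683.9 in DP and 13503.0 and 4236.7 in DF, against 470.2 to 948.1 in Mx and ORS. The sum of 9 dermal papilla markers was 15002.3 and 16577.0 in DP and 756.4 and 447.0 in Mc, where 8 of the 9 lay under 100 on both arrays. The sum of 8 Schwann cell and glial markers was 6239.8 and 4913.9 in DF, 2235.6 and 3146.6 in DP and 2490.2 and 2759.9 in Mc. That list holds Foxd3 itself, and both it and the melanocyte list hold Sox10. Markers of skeletal muscle and its precursors, a lineage that also uses Pax3, were under 100 on both arrays of every population for 8 of 8 genes, Pax7, Myod1 and Myf5 among them. In these sorted bulk samples fewer cells of a type and less RNA per cell cannot be told apart. The arrays came from a pair of chip lots, named here lot 1 and lot 2, with both Mx arrays and replicate 1 of the other populations in lot 1. Some of the differences among DF, DP and Mc are therefore also given within each lot, and those with ORS or Mx are not.

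RefSeq promoter windows, from 250 bases before a gene's start to 50 after it on GRCm38.p6, were found for 6 of the 8 genes, 8 windows in all, since 3 starts are listed for Mitf. Shown are the windows of Zic1 and Twist1, whose signals followed each other most closely among the members, of Foxd3, and of Mitf at the start farthest downstream, which is that of the melanocyte form. Capitals mark matches to any of the 4 motifs searched for on both strands. CACGTG is the palindromic E-box of basic helix-loop-helix factors. CATGTG is the E-box within the motif of pigment genes. CAGGTG is the E-box bound by Snail factors. CTTTGA is the core of the Lef1 and Tcf site. In the member windows no match of one motif overlapped another.
Mitf, downstream start, chr6:97991533-97991832, + strand: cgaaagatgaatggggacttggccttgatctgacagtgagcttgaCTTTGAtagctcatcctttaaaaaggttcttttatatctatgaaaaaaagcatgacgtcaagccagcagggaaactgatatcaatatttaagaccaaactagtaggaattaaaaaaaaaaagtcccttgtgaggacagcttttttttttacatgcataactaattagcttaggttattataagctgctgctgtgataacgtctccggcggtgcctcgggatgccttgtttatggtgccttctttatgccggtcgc
Foxd3, chr4:99656049-99656348, + strand: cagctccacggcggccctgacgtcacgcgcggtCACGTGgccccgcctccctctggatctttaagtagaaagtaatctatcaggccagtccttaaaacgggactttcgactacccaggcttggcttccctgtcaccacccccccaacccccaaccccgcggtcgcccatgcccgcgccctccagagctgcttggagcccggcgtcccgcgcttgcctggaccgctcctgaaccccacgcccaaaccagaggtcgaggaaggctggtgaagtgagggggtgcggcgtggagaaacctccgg
Zic1, chr9:91365719-91366018, - strand: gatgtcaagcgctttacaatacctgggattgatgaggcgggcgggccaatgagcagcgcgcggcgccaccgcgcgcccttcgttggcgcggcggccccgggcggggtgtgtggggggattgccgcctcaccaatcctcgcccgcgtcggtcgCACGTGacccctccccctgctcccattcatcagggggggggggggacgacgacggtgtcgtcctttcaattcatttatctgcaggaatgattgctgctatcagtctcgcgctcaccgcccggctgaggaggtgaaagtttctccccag
Twist1, chr12:33957421-33957720, + strand: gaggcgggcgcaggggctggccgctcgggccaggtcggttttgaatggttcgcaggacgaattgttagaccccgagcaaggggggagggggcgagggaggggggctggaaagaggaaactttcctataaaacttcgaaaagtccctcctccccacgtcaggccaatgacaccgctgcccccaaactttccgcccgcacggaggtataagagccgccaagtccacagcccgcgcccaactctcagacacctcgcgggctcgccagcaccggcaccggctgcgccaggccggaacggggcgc
The Mitf window held CTTTGA, first base 205 before the start. The Foxd3 and Zic1 windows each held CACGTG, 217 and 98 bases before the start, and the Twist1 window held none of the 4 motifs. Among 32851 mouse promoter windows of this length, 5257 held CTTTGA and CACGTG was found in 7.15%. The motif CAGGTG was present in the Snai1 window and in the middle Mitf window, and in 20.2% of all windows. CATGTG, present in 14.2% of all windows, was in none of the member windows. These are matches of letters, and binding was not measured.

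By the bound of 200 on both arrays, 2 of the 8 factors, Mitf and Pax3, were expressed in both Mc and DP. Another 4, Snai2, Twist1, Twist2 and Zic1, were expressed in DP and not in Mc, and no factor was expressed in Mc and not in DP when each gene was taken by any of its probe-sets. Foxd3 and Snai1 stayed under 200 in every population, and with a bound of 100 Foxd3 became the third gene shared by Mc and DP. The bound is not the study's measure, and by the study's account Pax3, Snai1 and Twist2 did not score as present in DP. Melanocyte marker sums in DP were 26151.7 and 16683.9, as given above. The part of melanocyte RNA in the shared class was not tested. Counted by probe-set, 2 of the 8 tested member probe-sets were at 200 in both Mc and DP and 4 in DP without Mc, and 2, the dimmer ones of Mitf and Pax3, in Mc without DP. Over all tested probe-sets the class shared by Mc and DP held 55.9%, that of DP without Mc 17.2% and that of Mc without DP 8.38%. All 8 tested member probe-sets, of 6 genes, differed between Mc and DP (adjusted p under 0.05), against 30.5% of all tested probe-sets. The 4 of Mitf and Pax3 were higher in Mc, and those of Snai2, Twist1, Twist2 and Zic1 were higher in DP. The dimmer probe-sets of Mitf and Pax3 passed the bound through Mc alone, so their higher signal in Mc is no independent result. With the bound of 100, Snai1 was called as lower in Mc (adjusted p = 5.41e-04) and Foxd3 was not called (adjusted p = 0.865).

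**Figure D1:**
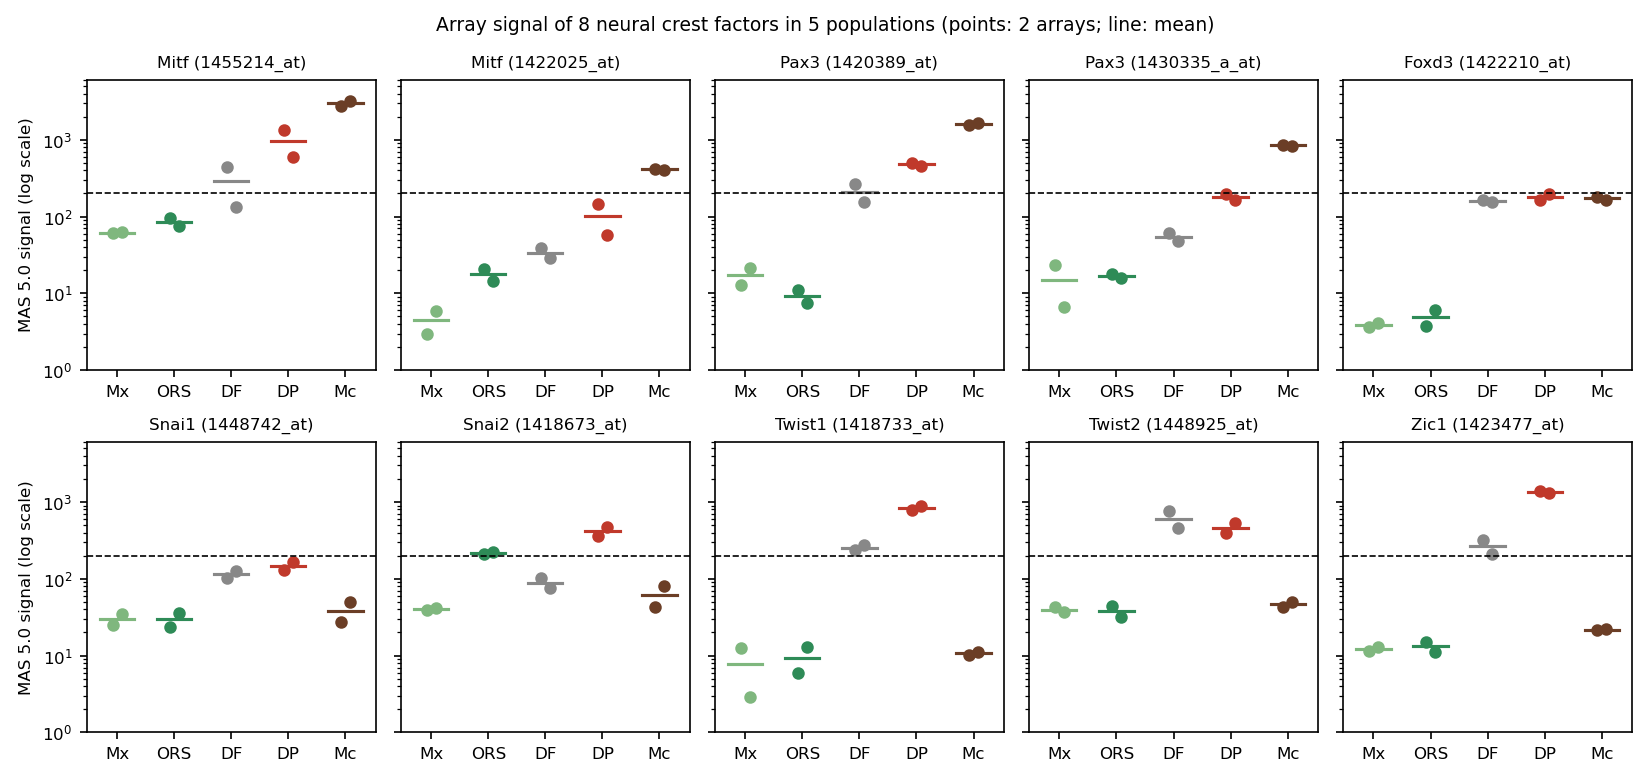
MAS5 signal (log axis) of the 10 probe-sets of the 8 factors in Mx, ORS, DF, DP and Mc. Points are the 2 arrays, short lines their mean, and the dashed line the bound of 200. Mitf and Pax3 peak in Mc with DP next, Foxd3 is level over DF, DP and Mc at 153.6 to 198.2, and the Twist factors and Zic1 are high in DF and DP and low in Mc.

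Mitf, a basic helix-loop-helix leucine zipper factor that activates the pigment genes, lies on chromosome 6 from 97807002 to 98021360 (GRCm38.p6). Its brighter probe-set (1455214_at) read 61.3 and 62.1 in Mx, 94.4 and 75.5 in ORS, 442.6 and 133.1 in DF, 1333.5 and 593.5 in DP and 2735.7 and 3208.2 in Mc. Both Mc arrays were above both DP arrays and both DP arrays above both DF arrays, but DP and DF each had replicate 1 far above replicate 2. Mc exceeded DP by 1.67 ± 0.40 (SE) on the log2 scale, 3.19-fold (adjusted p = 0.00665), and DP exceeded DF by 1.65 ± 0.40, 3.14-fold (adjusted p = 0.0109). Within chip lots 1 and 2 the difference Mc over DP was 1.01 and 2.34, and DP over DF was 1.49 and 1.81. The call for Mc over DP was lost without DP replicate 2 (1.12, adjusted p = 0.0988). That for DP over DF was lost without DP replicate 1 (1.10, adjusted p = 0.139) and without DF replicate 2 (0.94, adjusted p = 0.123). The dimmer Mitf probe-set (1422025_at) read 147.4 and 57.5 in DP and 421.4 and 402.4 in Mc, so that Mc alone reached 200 by it. It read 39.4 and 28.6 in DF and at most 21.0 in Mx and ORS. By this probe-set Mc over DP was 1.66 ± 0.25 (adjusted p = 1.92e-04) and DP over DF was 0.80 ± 0.25 (adjusted p = 0.0379), the latter falling to 0.36 (adjusted p = 0.395) without DP replicate 1. DF was above Mx by both probe-sets and above ORS by the brighter one only (adjusted p = 0.0407), while the dimmer gave adjusted p = 0.356. The dimmer's signals in DF, ORS and Mx were all under 50, near the floor, where the order cannot be read. Without DF replicate 1 the brighter probe-set gave 0.44 over ORS (adjusted p = 0.429) and 0.71 over Mx (adjusted p = 0.137), and the dimmer 0.53 over Mx (adjusted p = 0.197), so that none of these was called. The dimmer's call over Mx (adjusted p = 0.0489) was also lost under quantile normalization (adjusted p = 0.167) and when any single array of Mx, ORS, DF or Mc was left out.

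Pax3, a paired-box factor upstream of Mitf, lies on chromosome 1 from 78101267 to 78197136. Its brighter probe-set (1420389_at) read 12.7 and 21.5 in Mx, 11.1 and 7.5 in ORS, 265.3 and 154.0 in DF, 494.6 and 459.6 in DP and 1575.4 and 1633.1 in Mc. The 3 populations DF, DP and Mc rose in that order without overlap, and the keratinocyte populations stayed near the floor. Mc over DP was 1.65 ± 0.21, 3.14-fold (adjusted p = 6.02e-05), and DP over DF was 1.05 ± 0.21, 2.08-fold (adjusted p = 0.00339). Within lots 1 and 2 these were 1.58 and 1.72 for Mc over DP and 0.79 and 1.32 for DP over DF. The other probe-set (1430335_a_at) read 60.8 and 48.2 in DF, 197.8 and 162.9 in DP and 862.4 and 823.6 in Mc, with 6.6 to 23.2 in Mx and ORS. It gave the same order, with Mc over DP at 1.96 ± 0.19 (adjusted p = 4.60e-06) and DP over DF at 1.14 ± 0.19 (adjusted p = 8.53e-04). DP was thus under the bound of 200 by this probe-set and above it by the brighter one.

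Set against the mean Mc signal, Mitf was at 44.9% and 20.0% on the 2 DP arrays and at 14.9% and 4.48% on the DF arrays by its brighter probe-set. Pax3 was at 30.8% and 28.7% in DP and at 16.5% and 9.60% in DF. Melanocyte markers took a range of shares in DP. Dct, a melanin-synthesis enzyme, was at 118% and 78.9% of Mc in DP, Tyr, the rate-limiting enzyme of melanin synthesis, at 46.4% and 23.9%, and Sox10, a crest factor that acts with Pax3 on Mitf, at 28.8% and 27.8%. Lowest were Kit, at 22.0% and 13.3%, and Mc1r, at 14.5% and 6.83%. DP replicate 1 was above replicate 2 for 8 of 8 markers, by 1.04-fold for Sox10 and 1.41-fold to 2.13-fold for the others, by 2.25-fold for Mitf and by 1.08-fold for Pax3. DF replicate 1 was likewise above replicate 2, by 3.33-fold for Mitf, 1.72-fold for Pax3, 1.20-fold for Sox10 and 3.39-fold for Dct. The part of melanocyte RNA in the Mitf and Pax3 signals of DP and DF was not tested. With DF and DP replicate 1 both left out, 1 array of each was assumed to vary like the other populations. DP was then above DF by 1.81 for Mitf 1455214_at, 1.32 for Pax3 1420389_at and 1.12 for Pax3 1430335_a_at. The other Mitf probe-set, 1422025_at, gave 0.45 and was not called. The arrays that remained still differed in their melanocyte marker sums, 16683.9 in DP and 4236.7 in DF. The sums on the arrays left out were 26151.7 and 13503.0. This fit therefore could not separate melanocyte RNA from other sources of the Mitf and Pax3 signals.

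**Figure D2:**
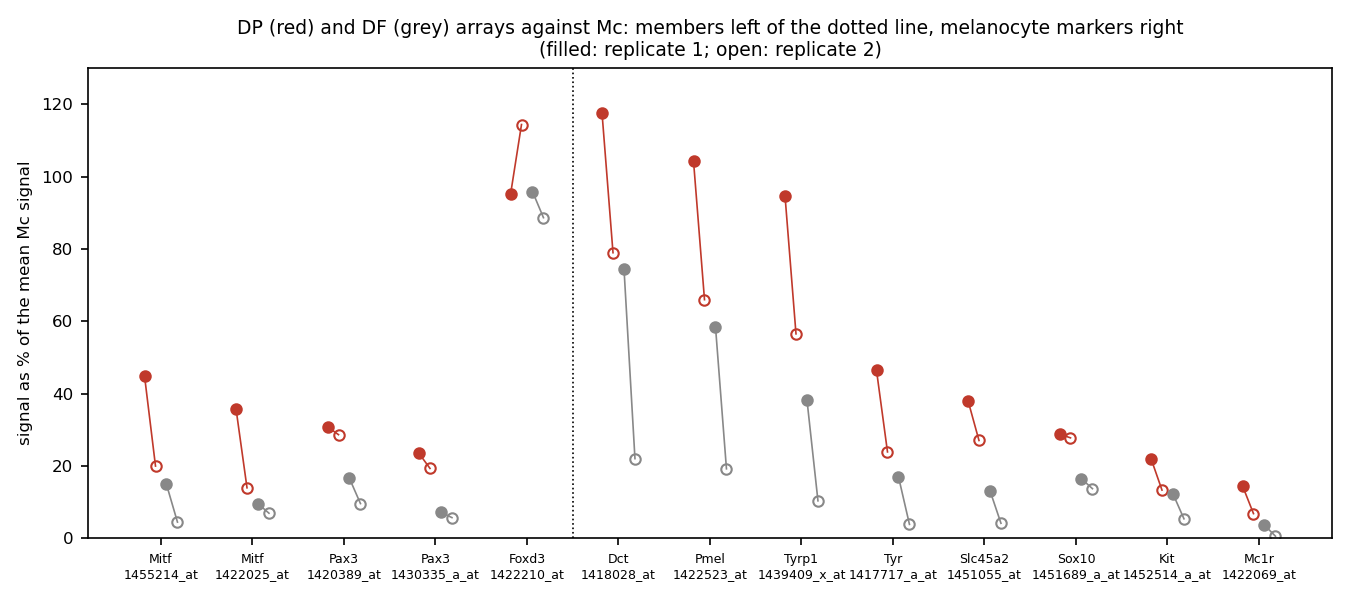
Signal on the DP arrays (red) and DF arrays (grey) as a percentage of the mean Mc signal, for the probe-sets of Mitf, Pax3 and Foxd3 and for 8 melanocyte markers ordered by their DP mean. Filled circles are replicate 1 and open circles replicate 2. Replicate 1 is the higher DP array for Mitf, Pax3 and every marker but not for Foxd3, and the gap between the DP arrays is narrow for Pax3 and Sox10.

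Foxd3, a forkhead factor that keeps crest cells multipotent and restrains the melanocyte fate, lies on chromosome 4 from 99656299 to 99658671 and downstream of the promoter shown above. It read 3.6 and 4.1 in Mx, 3.8 and 6.0 in ORS, 166.1 and 153.6 in DF, 164.7 and 198.2 in DP and 182.1 and 164.5 in Mc. The DF, DP and Mc arrays overlapped, and all 6 were far above the keratinocyte arrays. With the bound of 100, Mc minus DP was -0.05 (95% interval -0.42 to 0.32, adjusted p = 0.865) and DP minus DF was 0.14 (95% interval -0.23 to 0.50, adjusted p = 0.658). DF exceeded ORS by 1.93 ± 0.17 (adjusted p = 1.57e-06), in a comparison in which 32% of all probe-sets at that bound were called. On the 4 DF and DP arrays Foxd3 was at 88.6% to 114% of the Mc mean. Of the melanocyte markers, Sox10 was at 13.7% to 28.8% on these arrays. Dct was at 118% and 78.9% in DP and at 74.6% and 22.0% in DF. Of the 8 glial markers, 4 reached 200 on both arrays in DF and 4 in DP. Gfap was under 100 on every array, and S100b read 64.4 and 69.1 in DF and 247.8 and 276.7 in DP. The myelin gene Mbp was at 2053.9 and 1490.5 in DF, 169.6 and 442.8 in DP and 23.8 and 22.1 in Mc, and Pmp22, the peripheral myelin protein, at 2240.9 and 1737.5, 682.2 and 849.8, and 177.4 and 409.0. The part of glial or melanocyte RNA in the Foxd3 signal was not tested.

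The Snail factors are zinc-finger repressors of epithelial genes such as Cdh1. Snai2 (chromosome 16, 14705852 to 14709395) read 39.8 and 41.7 in Mx, 212.5 and 222.4 in ORS, 101.8 and 75.0 in DF, 357.7 and 468.9 in DP and 42.9 and 79.6 in Mc. It was the only member expressed in a keratinocyte population, and the order DP, ORS, DF had no overlap. DP exceeded Mc by 4.19-fold, Mc minus DP being -2.07 ± 0.21 (adjusted p = 7.42e-06), and exceeded DF by 1.74 ± 0.21, 3.34-fold (adjusted p = 6.80e-05). Within lots 1 and 2, DP over DF was 1.43 and 2.05. DP exceeded ORS by 0.78 ± 0.21 (adjusted p = 0.01), a call lost without ORS replicate 1 (adjusted p = 0.0584) or without DP replicate 2 (adjusted p = 0.105), and with the fluidics station as a block (0.56, adjusted p = 0.0722). DP replicate 2 ran on a station that no ORS array shared. ORS exceeded Mx by 1.56 ± 0.21, 2.95-fold (adjusted p = 1.65e-04). Twist1, Twist2 and Zic1 read under 50 on both ORS arrays. Mc minus DF was -0.33 ± 0.21 (95% interval -0.78 to 0.13, adjusted p = 0.256), with -0.71 in lot 1 and 0.05 in lot 2.

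Snai1 (chromosome 2, 167538195 to 167542814) stayed under 200 in every population, at 25.0 and 34.8 in Mx, 23.4 and 35.9 in ORS, 102.9 and 126.4 in DF, 130.9 and 165.5 in DP and 27.8 and 49.3 in Mc. Both DF and DP arrays lay above the other 6, and DP and DF did not overlap. With the bound of 100, Mc minus DP was -1.17 ± 0.20 (adjusted p = 5.41e-04), Mc minus DF -0.90 ± 0.20 (adjusted p = 0.00265) and DP minus DF 0.27 (95% interval -0.16 to 0.69, adjusted p = 0.423). At this bound 26.9% of 11914 probe-sets were called for Mc against DP, 33.1% for Mc against DF and 16.8% for DP against DF. The mean Snai1 signals of ORS and Mx were 29.6 and 29.9.

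The Twist factors are basic helix-loop-helix proteins of mesenchyme. Twist1 (chromosome 12, 33957671 to 33959831) read 12.7 and 2.9 in Mx, 5.9 and 13.0 in ORS, 238.4 and 272.6 in DF, 786.6 and 880.0 in DP and 10.3 and 11.2 in Mc. Mc was as low as the keratinocytes, and DP stood above DF on both arrays. Mc minus DP was -3.86 ± 0.18, 14.5-fold lower (adjusted p = 6.97e-09), and DP over DF was 1.53 ± 0.18, 2.89-fold (adjusted p = 5.42e-05), with 1.54 and 1.53 within the lots. Twist2 (chromosome 1, 91801461 to 91848034) read 42.5 and 36.8 in Mx, 44.1 and 32.1 in ORS, 754.6 and 456.0 in DF, 400.4 and 526.5 in DP and 43.4 and 49.5 in Mc. DF and DP overlapped, and both lay far above the other populations. Mc minus DP was -2.40 ± 0.23, 5.29-fold lower (adjusted p = 3.96e-06), and Mc minus DF was -2.73 ± 0.23 (adjusted p = 8.86e-07). DP minus DF was -0.32 ± 0.23 (95% interval -0.82 to 0.17, adjusted p = 0.387), at -0.84 in lot 1 and 0.19 in lot 2, and 0.01 without DF replicate 1. Markers of fibroblasts, summed over 8 genes, were 33762.7 and 31301.3 in DF, 22022.7 and 22481.3 in DP and 5338.9 and 3799.8 in Mc.

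Zic1, a zinc-finger factor of the neural plate border that is also found in dorsal mesoderm and dermis of the trunk, lies on chromosome 9 from 91358058 to 91365768. It read 11.4 and 12.9 in Mx, 15.2 and 11.1 in ORS, 319.2 and 208.2 in DF, 1411.1 and 1313.8 in DP and 21.5 and 21.9 in Mc. DP was several times DF on every array, and DF well above Mc. DP exceeded DF by 2.19 ± 0.20, 4.57-fold (adjusted p = 5.17e-06), the largest of the members in that comparison, with 1.99 and 2.40 within the lots. Mc minus DP was -4.30 ± 0.20, 19.7-fold lower (adjusted p = 6.15e-09), and Mc minus DF was -2.11 ± 0.20 (adjusted p = 2.18e-06).

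**Figure D3:**
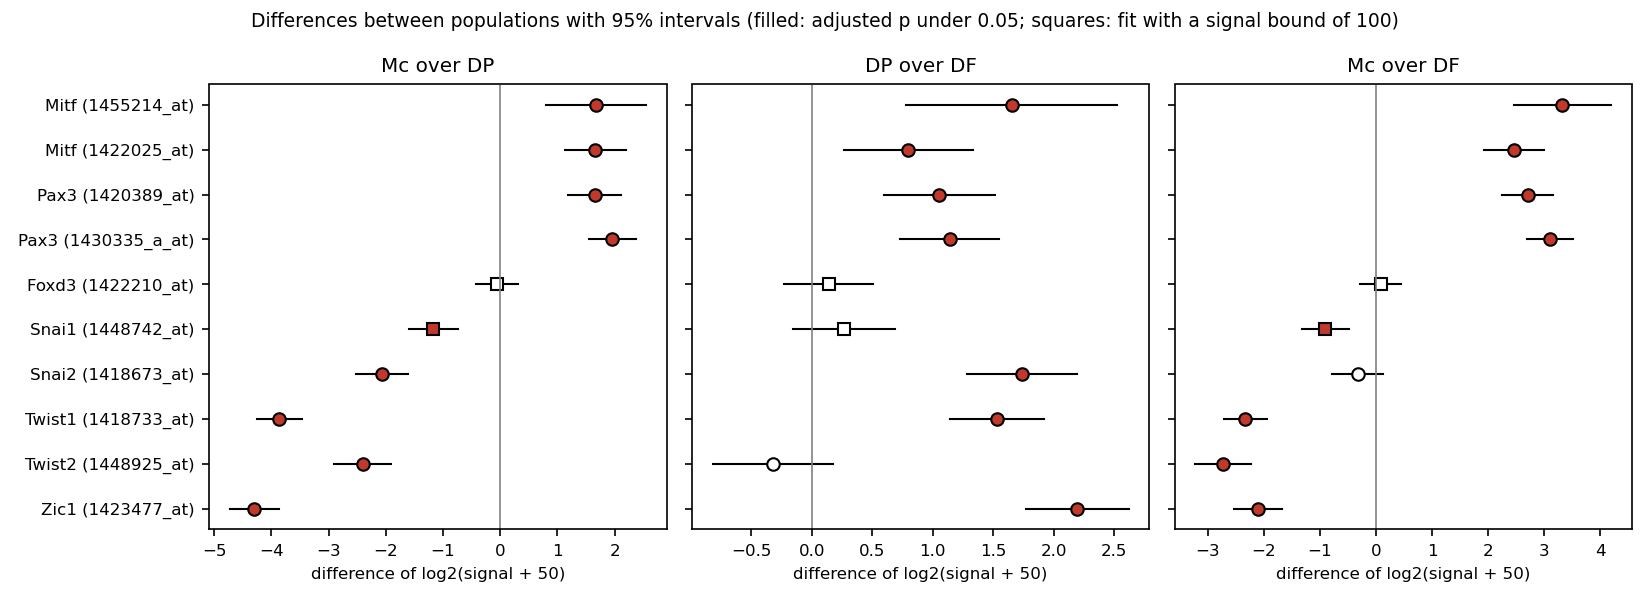
Differences of log2(signal + 50) for Mc over DP, DP over DF and Mc over DF, with 95% intervals from the pooled spread of all 10 arrays. Filled symbols have an adjusted p under 0.05, and squares (Foxd3, Snai1) come from the fit with a bound of 100. Mc over DP runs from -4.30 for Zic1 to 1.67 for Mitf and 1.96 for the second Pax3 probe-set, and DP over DF is below 0 for Twist2 alone, where it turned to 0.01 without DF replicate 1.

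**Figure D4:**
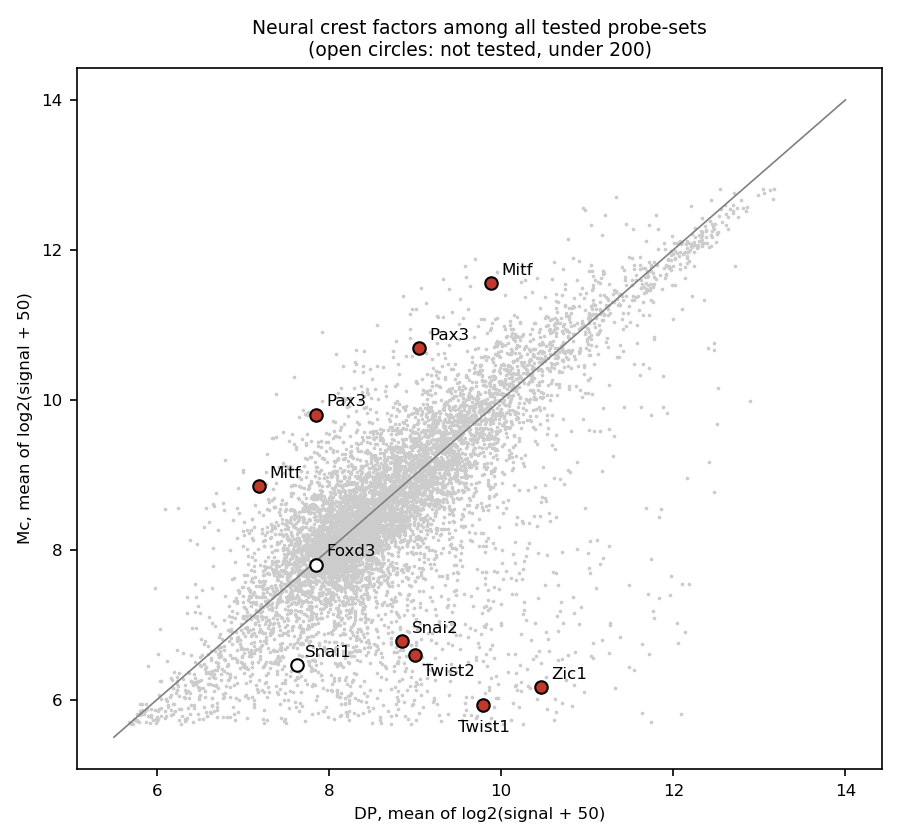
Mean log2(signal + 50) in DP (horizontal) and Mc (vertical) for the 8054 tested probe-sets in grey and the 10 member probe-sets in red, open where not tested. The line marks equal levels. Mitf and Pax3 lie above it, Foxd3 on it, and Snai1, Snai2, Twist1, Twist2 and Zic1 below it.

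Across the comparisons, 7 of the 8 tested member probe-sets were higher in DP than in DF (19% of all tested probe-sets were called in either direction), Twist2 being the exception. Mc and DF differed for 7 (36.3% of all), 4 higher in Mc and 3 lower, with Snai2 not called. All 8 were higher in DP than in Mx (58.1% of all) and in DP than in ORS (40.1%). Every such share of all probe-sets counts calls in either direction, also where the members went one way. Against ORS the call of Snai2 was lost with the station block, as given above, and that of Mitf 1422025_at with DF and DP replicate 1 both left out (0.67, adjusted p = 0.0573). Mc was above Mx for the 4 probe-sets of Mitf and Pax3 and for no other (50% of all called). Against ORS it was above for the same 4 and below for Snai2 (41% of all). DF was above Mx for 8 of 8 (52.2% of all). Of these, Mitf 1422025_at read under 50 on every array of both populations, where the order cannot be read. Both Mitf probe-sets, Pax3 1430335_a_at (0.61) and Snai2 (0.46) lost this call without DF replicate 1. Snai2 also lost it with the chip lot as a block (0.53, adjusted p = 0.0711), under quantile normalization (0.24, adjusted p = 0.311) and without either Mx array, both of which are from lot 1. DF was above ORS for 6, below it for Snai2 and not called for 1 Mitf probe-set (34.9% of all). The call of Mitf 1455214_at over ORS was lost under quantile normalization (adjusted p = 0.102), rescaling (0.0577) and no signal filter (0.138). It was also lost when any single array of Mx, ORS or Mc was left out. That of Pax3 1430335_a_at was lost under quantile normalization (adjusted p = 0.107), without either ORS array and without DF replicate 1. ORS and Mx differed for Snai2 only (19.4% of all). These comparisons share arrays and are not independent, and each one with Mc counts 2 probe-sets that passed the bound through Mc alone. No tested member passed it through Mx, and Snai2 alone did through ORS. Counts above Mx or ORS therefore partly follow from the bound and are no independent results. The order of levels was Mc, DP, DF for Mitf and Pax3 and DP, DF, Mc for Twist1 and Zic1, and for Twist1, Twist2 and Zic1 neighbouring steps among Mc, ORS and Mx did not pass the test (adjusted p of 0.483 to 0.958).

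Over the 10 arrays, Pearson's r of log2(signal + 50) was 0.99 between Twist1 and Zic1, 0.97 between Mitf and Pax3, and 0.92 between Twist1 and Twist2, whereas it was 0.03 between Pax3 and Snai2 and 0.24 between Mitf and Twist1. Such values are a description, since the 10 arrays hold 5 populations only and replicates share a level. The genes most like Mitf were Gpr143, a receptor of the melanosome (r = 0.9938), Mcoln3 and Bace2. Those most like Pax3 were Qpct, Fabp7 and Sox10 (r from 0.9949 to 0.9974). Those most like Twist1 were Pth1r, the parathyroid hormone receptor (r = 0.9967), Aplp1 and Svep1, and those most like Zic1 were Dram1, Thbs3 and again Pth1r. Twist2 was closest to Mest (r = 0.994), Pcdh18 and B3gnt9. Snai2 was closest to Fst, the activin antagonist follistatin (r = 0.965), with Pygl and Pappa next. The mean Fst signal was highest in DP (1809.1), followed by ORS (622.7), DF (221.5), Mx (60.8) and Mc (49.5).

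Other transcription factors of the crest were split in the same comparison. Of 41 listed, 23 were tested, with 5 higher in Mc than in DP and 11 lower, against 10.6% and 20.8% of all 5283 tested genes, and the median difference was -0.55 against -0.11 for all genes. The 5 higher in Mc were Tfap2b, Sox6, Sox10, Tfap2a and Myc. Sox10 was 3.32-fold higher than in DP (1.73 ± 0.17, adjusted p = 5.57e-06) and the AP-2 factors Tfap2b and Tfap2a 4.32-fold and 3.09-fold (adjusted p = 1.28e-05 and 2.58e-04). Neither AP-2 factor was particular to Mc. Mean signals in Mx, ORS and Mc were 192.8, 209.0 and 845.8 for Tfap2b and 546.0, 531.8 and 782.6 for Tfap2a. The 4 with the largest differences were all lower in Mc. Prrx1, a mesenchymal homeobox factor, had a mean signal of 994.4 ± 61.3 (SD) in DF, 1108.1 ± 32.4 in DP and 23.9 ± 10.3 in Mc. Meis1 was at 31.4 ± 1.2 in DF, 424.0 ± 19.9 in DP and 4.9 ± 4.1 in Mc, and Sox2, known from the papillae of some hair types, at 70.3 ± 1.1, 375.4 ± 71.1 and 1.0 ± 0.8. Tfap2c was at 248.7 ± 61.7 in DP, 6.3 ± 3.8 in Mc and, unlike the other 3, 204.4 ± 58.2 in Mx. Meis1, Sox2 and Tfap2c passed the bound through DP alone, and Sox6 through Mc alone. Their differences between Mc and DP are no independent results. For DP against DF 7 were higher and 5 lower (7.84% and 11.7% of all genes), the lower ones being Foxc2, Myc, Zeb1, Sox6 and Mycn. Foxc2 passed the bound through DF alone.

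Receptors and surface genes of crest cells were split likewise, with 4 of 18 tested higher in Mc than in DP and 12 lower (10.6% and 20.8% of all tested genes), at a median of -1.44. The 4 were Kit (5.36-fold, 2.42 ± 0.32, adjusted p = 8.81e-05), the endothelin receptor Ednrb (3.45-fold), the neuregulin receptor Erbb3 (1.78-fold) and Nrp1 (1.73-fold). Kit is the gene of the protein that Mc were sorted for and by which cells were depleted from DP and DF, so its difference is no independent result. The mesenchymal receptor Pdgfra was at 633.9 ± 34.1 in DF, 1541.9 ± 129.3 in DP and 7.4 ± 9.3 in Mc, and the proteoglycan Vcan at 955.8 ± 89.2, 3950.4 ± 86.6 and 120.4 ± 28.6. Cdh11 and Cxcr4, an adhesion molecule and a chemokine receptor of migrating cells, were 18.9-fold and 7.20-fold lower in Mc than in DP (adjusted p = 8.76e-08 and 1.54e-07). Cxcr4 passed the bound through DP alone, so its difference is no independent result either. Between DP and DF 8 were higher in DP and 4 lower (7.84% and 11.7% of all genes), the latter Fn1, Ednrb, Nes and Nrp2. Ednrb, a Mitf-linked gene too, was at a mean of 1722.6 in DF against 623.8 in DP, the opposite order to Mitf and Pax3.

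Among 16 tested melanocyte genes known to act under Mitf, 11 were higher in Mc than in DP, against 10.6% of all tested genes, and 1 was lower, against 20.8%. The latter was Bcl2 (-1.08 ± 0.22, adjusted p = 0.00214), a survival gene used by many cell types. The median difference was 1.68 on the log2 scale, against -0.11 for all tested genes. Mc1r, the melanocortin receptor, read 1890.8 ± 362.2 in Mc and 201.8 ± 102.7 in DP, and the melanocyte channel Trpm1 3106.6 ± 713.3 and 629.4 ± 323.5. Gpr143 and the melanosome transport protein Mlph were 4.74-fold and 4.46-fold higher in Mc (adjusted p = 5.31e-04 and 1.25e-04). Mc1r and Mlph passed the bound through Mc alone, and Bcl2 through DP alone. Their differences between Mc and DP are no independent results. For DP against DF 9 were higher and 2 lower, Tbx2 and Ednrb (7.84% and 11.7% of all genes), with a median of 1.27. This list shares Tyr, Tyrp1, Dct, Pmel, Slc45a2 and Mc1r with the melanocyte markers, whose sums were higher in DP than in DF. How far melanocyte RNA made up these differences was not tested.

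Genes of epithelial and mesenchymal character linked to Snail and Twist were lower in Mc than in DP for 11 of 22 tested (20.8% of all tested genes), and 1 was higher (10.6%). That one was Cdh1 (E-cadherin), the classical target of Snail and Twist repression, at mean signals of 498.9 in Mc, 124.6 in DP and 185.2 in DF, against 980.4 in ORS and 835.8 in Mx (Mc over DP 1.67 ± 0.22, adjusted p = 6.78e-05). Cdh1 was highest by mean in ORS, where Snai2 was just over the bound (212.5 and 222.4). A relation between Snai2 and Cdh1 was not tested. Cdh11, Acta2, Postn and Id1 were 18.9-fold, 9.61-fold, 6.61-fold and 4.57-fold lower in Mc than in DP. Acta2 and Postn were in turn higher in DF than in DP, at 8641.7 ± 149.9 against 2084.4 ± 695.7 and 4860.0 ± 267.6 against 1004.0 ± 372.5. Pericyte and smooth muscle markers, a list of 6 that holds Acta2 itself, summed to 19202.3 and 20511.3 in DF and 2926.7 and 5066.7 in DP, and endothelial markers to 3593.4 and 2590.4 in DF and 274.6 and 267.8 in DP. The part of these cell types in the DF signals was not tested. In DP against DF 5 were higher, Id2, Cdh11, Lum, Zeb2 and Cdh2, and 6 lower (7.84% and 11.7% of all genes), at a median of -0.28. Lum and Cdh2 passed the bound through DP alone. The lists overlap, and a tested member owes its place to whichever population brought it over the bound.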

How the data were processed

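Per the labels and the study's methods, RNA of each sorted population was amplified once, hybridized to MOE430A arrays and turned by the authors into MAS5 signals, a linear intensity per probe-set, scaled on each array. The deposited table of these intensities was used, and present calls and Robust Multi-Chip values were not used here. The text files deposited with each array gave chip lot and fluidics station. Control probe-sets (64) were left out. The platform annotation gave 20380 probe-sets 1 gene, 691 several and 1555 none. The test was limma 3.58.1, run in R 4.3.3, on log2(signal + 50) of probe-sets at 200 or more in both arrays of a population, with a mean per population and no block. The fit had 5 residual and 7.46 prior degrees of freedom and a median residual SD of 0.208 (log2), and was tested on simulated data first. Since 2 arrays against 2 cannot go below p = 0.333 in an exact two-sided permutation test, every call borrows its error from all populations and probe-sets together. The labels number the replicates, but same-numbered arrays did not deviate together in every pair of populations (r from -0.05 to 0.34), so the numbers were not taken to pair them. The number of arrays limits the precision, and median signals ran from 49.9 (Mx replicate 1) to 90.9 (DP replicate 2).

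All member probe-sets are named. The nearest genes are the 3 with the highest r over 10 arrays, and of each list the 4 with the largest difference between Mc and DP are named, with every gene of a count of 5 or fewer. The genes, lists and rules were chosen with earlier results of these data known. Alternatives were other pseudocounts, bounds, normalizations, blocks, priors and arrays. The fluidics station block and leaving out DF and DP replicate 1 together were added after seeing the data. Python 3.11.15, numpy 2.4.6, pandas 2.3.3 and matplotlib 3.10.9 were used for counts and plots.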

Additional observations from a re-analysis of the deposited data

How the results depend on the processing

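Across the alternatives 8 member probe-sets differed between Mc and DP, except for 7 without DP replicate 2 and 9 with a bound of 100. Without a signal filter or with that bound 10 were tested, otherwise 8. DP against DF gave 5 to 7, with 5 under no signal filter, with only the populations compared, without DF replicate 2 and without DP replicate 1, and Mc against DF gave 7 or 8. The other 7 pairs of populations together gave 41 calls, and 35 to 51 under the alternatives. With the replicate block the counts were 8, 7, 7 and 41, and no member call changed by it. With the chip lot block they were 8, 7, 7 and 40. Of 1760 member differences under alternatives 1673 kept their direction and side of the threshold, 66 called differences were no longer called, 3 became called, and 18 changed sign, of which 0 had been called. Those that changed sign were small. Under quantile normalization ORS minus Mx was -0.024 for Pax3 (1430335_a_at), -0.004 for Twist1 and -0.043 for Zic1, and Mc minus Mx of Twist2 was -0.019. Rescaling over all probe-sets gave -0.008 for ORS minus Mx of Zic1, the chip lot block gave -0.02 for Twist1 and 0.025 for Twist2, and the fluidics station block gave -0.021 for Mc minus ORS of Twist1. With 1 array left out, ORS minus Mx ran from -0.129 to 0.242 for Pax3 (1430335_a_at), from -0.079 to 0.166 for Twist1, from -0.126 to 0.071 for Twist2 and from -0.024 to 0.069 for Zic1. Twist1 ran from -0.046 to 0.2 for Mc minus Mx and from -0.053 to 0.12 for Mc minus ORS. DP minus DF of Twist2 ran from -0.659 to 0.01, the latter without DF replicate 1, and was 0.188 without DF and DP replicate 1. The causes were not tested. DP over DF of Mitf was not called without a signal filter by either probe-set (adjusted p of 0.0782 and 0.0981), nor was Mc over DP by the brighter one (0.0544). Where an array is left out, the array that remains of that population is assumed to vary like the other populations. Signals under 50 lie near the floor, where the order of populations cannot be read.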
